A study of Mus musculus with 168 samples.

Results

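Agrn, Nrg1, Nrg2, Etv1, Lrp4, Dok7 and Erbb4 are genes by which motor neurons and muscle organize the neuromuscular junction or the sensory endings beside it. They were taken by name and not by a rule on their measured values, though earlier results of these data were known. All 7 were found among the 39410 genes of the expression table. The table covers 6 neuron populations of the mouse brain and spinal cord, isolated by laser capture with about 150 cells pooled in each tube. 5 populations were motor neurons (ocular, facial, vagus, hypoglossal and lumbar spinal cord) and the sixth was the red nucleus, whose neurons do not contact muscle. SMA mice were Smn-/-/SMN2+/+/SMN∆7+/+ animals, which lack mouse Smn and carry 2 human SMN transgenes, and controls were Smn+/+/SMN2+/+/SMN∆7+/+ littermates that carry the same transgenes. Mice were taken 2, 5 and 10 days after birth, described by the submitters as before symptoms, early and late in the disease. Values are RPKM, reads scaled to gene length and to the library's reads, averaged to 1 value per mouse and population, and each of the 36 groups of population, genotype and day held 3 to 7 mice.

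Agrin, the product of Agrn, is secreted by the motor nerve terminal and binds the muscle receptor LRP4, which activates the kinase MuSK. DOK7 binds MuSK from inside the muscle fibre and is needed for its activity, and the outcome is the clustering of acetylcholine receptors under the nerve ending. Neuregulins, the products of Nrg1 and Nrg2, are ligands of ERBB receptor kinases on Schwann cells and muscle, and ERBB4 is one of these receptors. ETV1 (also called ER81) is an ETS transcription factor known for its part in muscle sensory afferents and muscle spindles and for marking subsets of motor pools. Within the brain ERBB4 is best known from inhibitory interneurons, and neuregulin 1 from motor axons supports Schwann cells.

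Only agrin with inserts encoded by 2 short exons, called the z exons and used by neurons, clusters receptors strongly. Those exons and the short y exon upstream are shown because the RPKM table gives 1 value for the whole gene, so that forms with and without them cannot be told apart in these data. Each line gives 15 bases of the neighbouring exon on either side in lower case and the short exon in capitals, 5′ to 3′ on the minus strand of chromosome 4 (GRCm38, GENCODE M21).
y exon: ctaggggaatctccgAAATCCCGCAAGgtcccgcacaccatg
first z exon: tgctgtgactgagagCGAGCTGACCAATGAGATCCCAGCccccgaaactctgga
second z exon: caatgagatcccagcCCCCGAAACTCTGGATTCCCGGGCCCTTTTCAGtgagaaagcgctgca
z exons skipped: tgctgtgactgagagtgagaaagcgctgca
The y exon lies at chr4:156169546-156169557 and holds 12 bases (4 codons). The first z exon lies at chr4:156168546-156168569 and holds 24 bases (8 codons), and the second lies at chr4:156167777-156167809 and holds 33 bases (11 codons). Of 7 annotated Agrn transcripts, 2 hold the y exon, 2 hold the first z exon, 1 holds the second, and 2 hold the junction that skips both z exons. The same total also joins 2 start sites, the upstream one known for the secreted form and the internal one for a membrane-anchored form found in the nervous system. The 250 bases before each start are printed for that reason (RefSeq, GRCm38.p6, minus strand), with the motif GGGCGG, the GC box, in capitals on either strand.
Agrn upstream start, chr4:156197489-156197738: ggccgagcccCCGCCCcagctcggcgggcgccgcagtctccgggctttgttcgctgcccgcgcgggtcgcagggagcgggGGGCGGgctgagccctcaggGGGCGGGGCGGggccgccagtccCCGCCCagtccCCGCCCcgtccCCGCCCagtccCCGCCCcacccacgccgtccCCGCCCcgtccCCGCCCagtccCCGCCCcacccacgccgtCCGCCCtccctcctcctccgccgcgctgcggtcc
Agrn internal start, chr4:156186260-156186509: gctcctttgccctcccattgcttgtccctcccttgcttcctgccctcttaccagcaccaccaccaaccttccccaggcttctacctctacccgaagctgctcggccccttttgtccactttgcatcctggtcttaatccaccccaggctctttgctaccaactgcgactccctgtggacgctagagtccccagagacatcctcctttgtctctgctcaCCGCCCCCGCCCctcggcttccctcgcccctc
The upstream window holds 12 matches, the internal one 2, and 32.7% of all 32851 RefSeq windows of this length hold at least 1. Promoter windows were matched for 4 of the 7 genes, Agrn, Dok7, Etv1 and Erbb4. Neuregulin 1 is likewise made as several isoform types from different starts, which 1 gene total joins.

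The other genes lie, in GRCm38 (GENCODE M21), at chr8:31814551-32884029 on the minus strand for Nrg1, at chr12:38779380-38870484 on the plus strand for Etv1, at chr2:91457511-91513779 on the plus strand for Lrp4, at chr5:35056766-35087839 on the plus strand for Dok7, at chr18:36017652-36197380 on the minus strand for Nrg2 and at chr1:68032186-69108059 on the minus strand for Erbb4, while Agrn spans chr4:156165290-156197488. Exons of Nrg1 share 482 bases with Gm26578, a long noncoding RNA on the opposite strand, and the sources used here do not state whether counting used strand. Gm26578 had a median of 0.454 RPKM over the 160 samples and a maximum of 3.69, against a median of 16.0 for Nrg1.

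Depth, gauged from the steps between low RPKM values, ran from 0.342M to 16.3M reads per library with a median of 5.89M. At the median depth 3 reads correspond to between 0.0383 RPKM for Etv1 and 0.162 for Nrg2. In the shallowest library (control mouse 252, red nucleus, day 10) 3 reads correspond to 0.66 RPKM for Etv1 and 2.80 for Nrg2. Smn1, the deleted gene, was lower in SMA mice in all 18 population and day comparisons, with no overlap over all samples (lowest control 4.32 RPKM, highest SMA 4.24). In controls the summed motor neuron markers Chat, Slc5a7, Isl1 and Prph had population medians from 835 to 1604 RPKM in motor populations and 35.3 in the red nucleus, where the red nucleus list reached 405. The skeletal muscle list had medians from 5.38 to 13.1 RPKM in controls and from 3.61 to 19.5 in SMA mice. Of its 6 genes Myog was at 0 in nearly every control sample, and Acta1 carried most of the sum.

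The 7 genes covered a wide span of abundance. Agrn, with a median of 60.1 RPKM over the 160 samples, exceeded 90.9% of 18547 genes expressed at 1 RPKM or more in at least 10 samples. Nrg1 had a median of 16.0 RPKM, above 74.4% of those genes, and Dok7 had a median of 5.94, above 56.3%. Nrg2 (1.10 RPKM), Etv1 (0.928), Erbb4 (0.542) and Lrp4 (0.373) were low, and Etv1 was at 0 in 20 of 160 samples, Erbb4 in 7 and Lrp4 in 5. The nerve-derived ligands agrin and neuregulin 1 were thus the more abundant transcripts, and the genes for the receptors LRP4 and ERBB4 the least. The name under which the genes were grouped, organizers from motor neurons, did not match a pattern limited to motor neurons. In the tests that follow, no motor population passed as higher than the red nucleus in Agrn, Nrg2, Dok7 or Erbb4. Some control means were higher in a motor population for Agrn, Nrg2 and Dok7, and a missed threshold does not show equal levels.

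**Figure D1:**
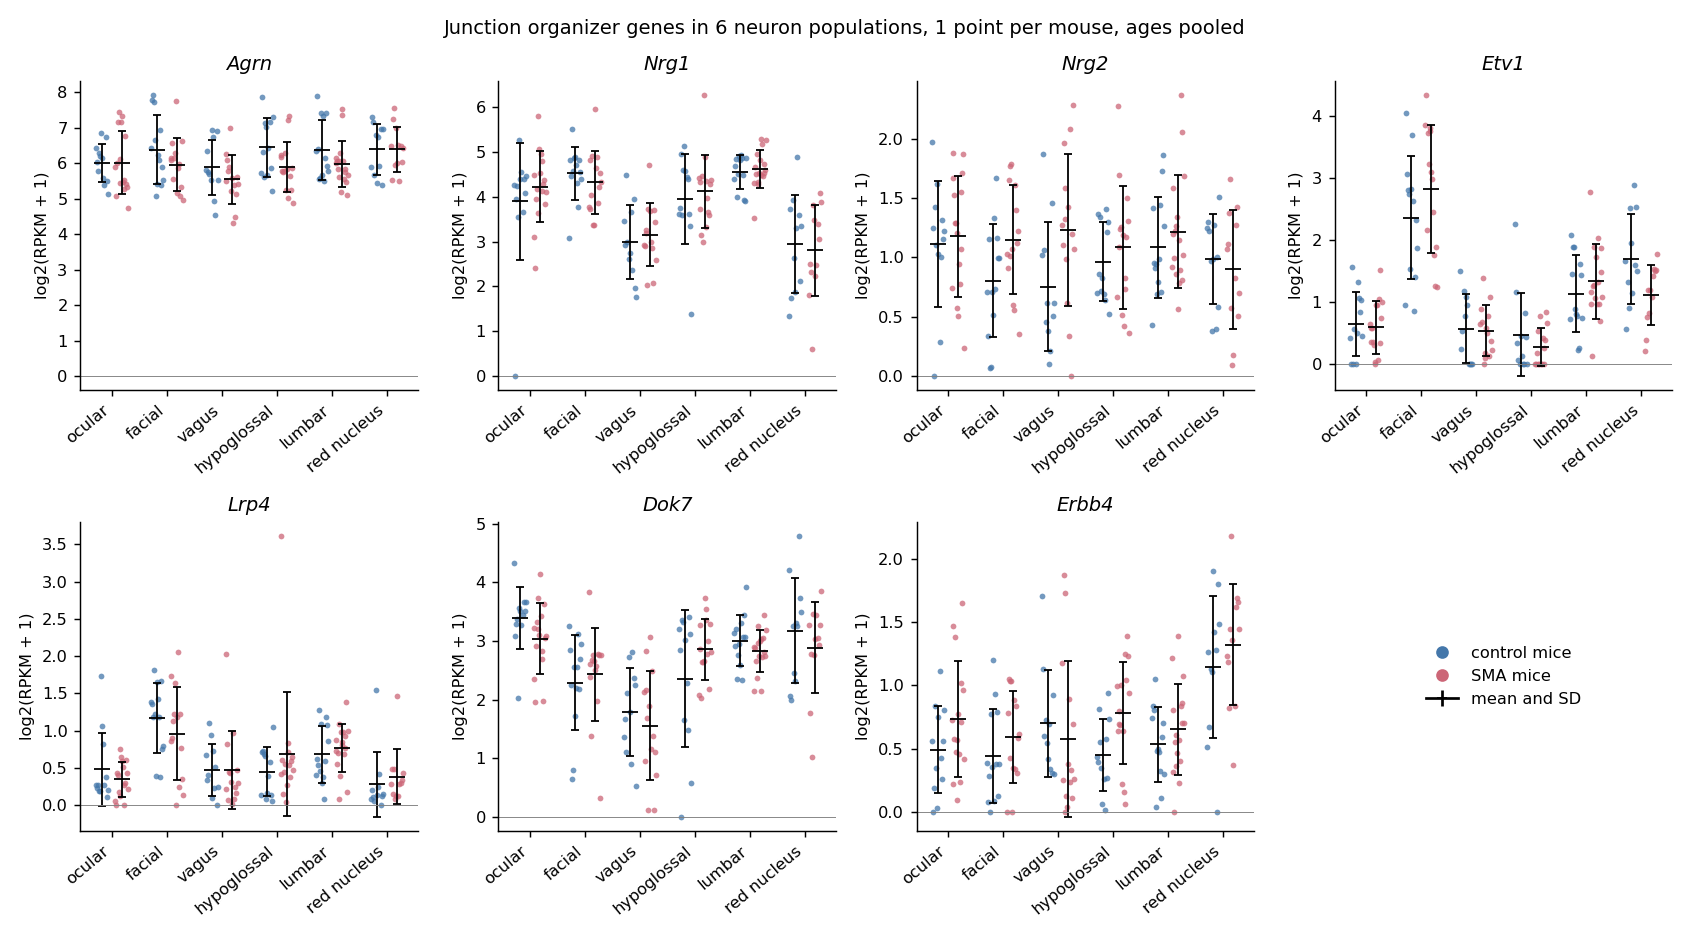
Level of each gene as log2(RPKM + 1) in 6 neuron populations (horizontal axis), with 1 point per mouse, ages pooled, control mice in blue, SMA mice in red and bars for the mean and SD. Agrn is high in every population, Nrg1 is lowest in vagus and red nucleus, Etv1 stands highest in facial motor neurons and Erbb4 in the red nucleus.

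Differences between populations were tested in control mice with limma on log2(RPKM + 1), each population taken as the mean of its 3 days, and called at a Benjamini-Hochberg adjusted p under 0.05 over all genes tested. A gene was tested where it had 1 RPKM or more in as many control samples, of any population, as the smallest group holds. It could thus be low in either population of a pair. Over 15 population pairs for each of the 7 genes, 27 tests passed (25.7%), where 17.7% of all gene tests did. The calls fell on Etv1 (7 pairs), Nrg1 (6), Dok7 (5), Erbb4 (5) and Lrp4 (4), and on none for Agrn and Nrg2. A fit of the SMA mice, added after the control result had been seen, passed 31 of the same tests (29.5%), where 19.5% of all gene tests did. Of the 27 control calls, 22 (81.5%) also passed in SMA mice, which is 71.0% of the 31 calls there, and all 27 had the same sign. Samples of different populations from 1 mouse are not independent, and the fit with mouse as a replicate block is given where it removed a call. Pairs that passed only with mouse as a fixed block are not named.

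**Figure D2:**
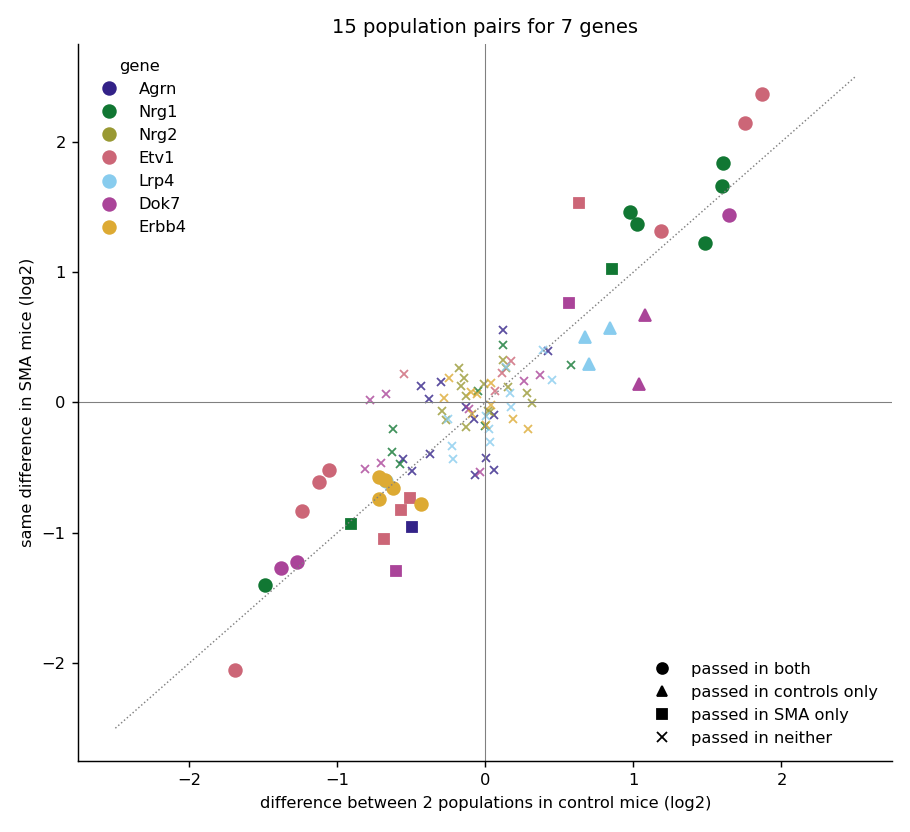
Difference between 2 populations in log2(RPKM + 1) for 15 pairs and 7 genes, in control mice (horizontal axis) and SMA mice (vertical axis), with symbols for where the test passed and the dotted line marking equal values. The 22 differences that passed in both lie in the lower left and upper right, and Etv1 and Nrg1 reach farthest from 0.

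Agrn, the nerve's signal for receptor clustering, was abundant in all 6 populations, and no pair of populations passed in controls. Means in control mice were 102.8 ± 73.4 RPKM in facial (SD, n = 13), 100.8 ± 59.9 in hypoglossal (n = 12), 97.98 ± 64.05 in lumbar (n = 13), 92.5 ± 42.9 in red nucleus (n = 11), 67.6 ± 25.3 in ocular (n = 12) and 66.2 ± 35.1 in vagus (n = 11). The smallest adjusted p of the 15 control pairs was 0.232, for vagus minus hypoglossal (-0.55 on the log2 scale, SE 0.32). In SMA mice vagus was below red nucleus by 0.95 on the log2 scale (SE 0.27, adjusted p = 0.00447), with 51.04 ± 26.9 RPKM (SD, n = 14) against 91.4 ± 43.6 (n = 12). The same pair differed by -0.49 in controls (SE 0.32, adjusted p = 0.306). Between lumbar motor neurons and the red nucleus, which innervates no muscle, the control difference was 0.00 with a 95% interval from -0.62 to 0.62.

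The spread of Agrn between samples was wide for a gene of its level. Values ran from 19.0 to 241.7 RPKM, and the SD within groups was 0.73 on the log2 scale, where the median was 0.36 for 960 genes within 0.5 log2 units of its mean level and 4.48% of them had a larger SD. Values over 100 RPKM, a limit chosen after seeing the data, occurred in 38 of 160 samples, in every population (4 of 25 vagus samples to 9 of 23 red nucleus samples), in 24 of 72 control and 14 of 88 SMA samples, and in 19 of 34 mice. No mouse was over 100 in all its populations. SMA mouse 61 had 126.5 RPKM in red nucleus, 159.4 in ocular, 146.8 in hypoglossal and 184.9 in lumbar, with 57.1 in facial and 46.8 in vagus, and whether high values shared a mouse more often than others was not tested. Repeat libraries of 1 mouse and population also differed. In SMA mouse 31 at day 5 the ocular libraries gave 27.3 and 111.04 RPKM (4.06-fold apart), where 0.22% of 3639 genes at 20 RPKM or more in both had a larger ratio. The red nucleus libraries of the same mouse gave 92.0 and 29.0 RPKM (3.18-fold), where 0.85% of 3764 genes did. In the other 6 repeats Agrn differed by 1.14-fold to 1.86-fold. Of these only the pair of lumbar mouse 206 (1.14-fold) came from the same region. Ocular mice 30, 75, 196 and 254 had the oculomotor against the trochlear nucleus, and mouse 252 both nuclei against the oculomotor. Nucleus and repeat cannot be told apart in those. Each tube held about 150 cells, and whether the cells drawn, amplification or another factor set these values was not tested.

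**Figure D3:**
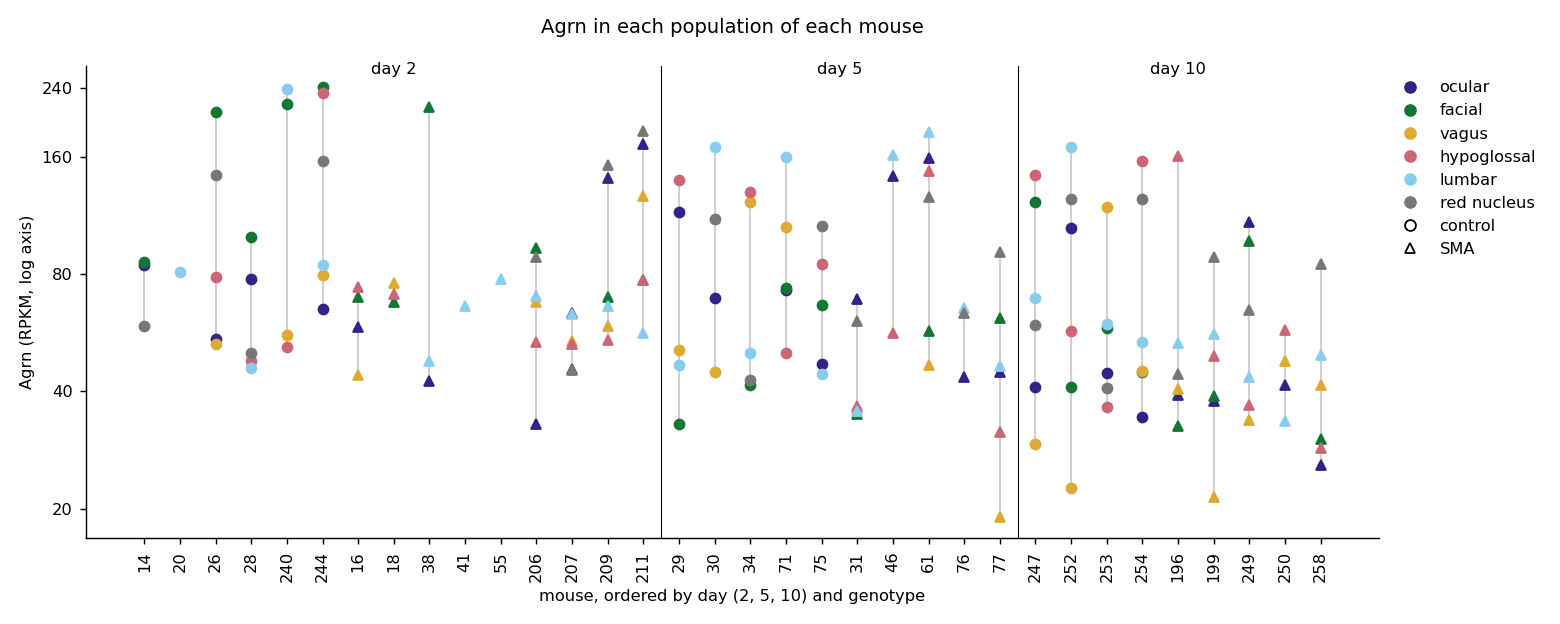
Agrn RPKM (log axis) in every population of each of the 34 mice, ordered by day and genotype, with circles for controls, triangles for SMA mice, colours for populations and a grey line from the lowest to the highest value of a mouse. High and low values occur in the same mouse, as in control mouse 252 with 170 RPKM in lumbar and 22.5 in vagus.

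Nrg1, the neuregulin by which motor neurons signal to Schwann cells, separated the populations. In controls lumbar motor neurons had 14.0, 24.6 and 29.4 RPKM (lowest, median and highest of 13 mice) and facial motor neurons 7.47, 22.8 and 44.6 (13 mice). Vagus had 2.39, 6.54 and 21.2 (11 mice) and red nucleus 1.55, 8.82 and 28.4 (11 mice), so that the ranges overlapped but most vagus and red nucleus samples lay under the lumbar minimum. Hypoglossal (17.3 ± 9.39, SD, n = 12) and ocular (17.5 ± 8.76, n = 12) lay between. Lumbar exceeded red nucleus by 1.60 on the log2 scale (SE 0.35, adjusted p = 0.000276) and vagus by 1.49 (SE 0.35, adjusted p = 0.000564), and facial exceeded them by 1.60 (adjusted p = 0.000338) and 1.48 (adjusted p = 0.000755). Vagus, a visceral motor population, was not separated from red nucleus (0.12, SE 0.36, adjusted p = 0.885), nor facial from lumbar (-0.01, SE 0.33, adjusted p = 1).

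The differences of hypoglossal and ocular from red nucleus in Nrg1 were less stable in controls. Hypoglossal exceeded red nucleus by 1.02 (SE 0.35, adjusted p = 0.0307) and ocular did by 0.98 (SE 0.35, adjusted p = 0.0478), and with mouse as a fixed replicate block the adjusted p became 0.0655 and 0.0679. The hypoglossal call was lost without control mouse 14, 26, 30, 34, 252 or 253 (adjusted p up to 0.137). The ocular call was lost without control mouse 14, 20, 26, 28, 29, 30, 34, 75, 240, 252, 253 or 254 (adjusted p up to 0.195). In SMA mice both passed, with 1.37 (adjusted p = 2.15e-06) and 1.46 (adjusted p = 4.57e-07). There vagus also lay under hypoglossal by 0.93 (adjusted p = 0.00101) and under ocular by 1.02 (adjusted p = 0.000177), differences of 0.91 and 0.86 in controls that missed the threshold.

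Nrg2, a second neuregulin made by neurons, was low in every population. Control means ran from 0.81 ± 0.784 RPKM in vagus (SD, n = 11) to 1.30 ± 0.766 in ocular (n = 12), and no pair passed in either genotype. The smallest adjusted p of the 15 control pairs was 0.242, for ocular minus vagus (0.32 on the log2 scale, SE 0.19).

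Etv1, the ETS factor, was the gene with the most differences, and over the 3 days together its level was highest in facial motor neurons. At day 10 facial was not the highest, with a control mean of 2.27 ± 1.37 RPKM (SD, n = 4) against 3.76 ± 2.23 in red nucleus (n = 4). In controls facial samples had 0.807, 5.17 and 15.6 RPKM (lowest, median, highest of 13 mice), red nucleus 0.47, 2.02 and 6.41 (11 mice) and lumbar 0.169, 0.841 and 3.22 (13 mice). The other 3 motor populations had medians of 0.443 (ocular), 0.439 (vagus) and 0.174 (hypoglossal), with 3 of 12, 4 of 11 and 4 of 12 samples at 0. Facial exceeded hypoglossal by 1.87 on the log2 scale (SE 0.26, adjusted p = 2.31e-07), vagus by 1.75 (adjusted p = 3.52e-07), ocular by 1.69 (adjusted p = 8.94e-07) and lumbar by 1.18 (SE 0.26, adjusted p = 0.000752). Red nucleus exceeded ocular, vagus and hypoglossal by 1.06, 1.12 and 1.24 (adjusted p of 0.00299, 0.00146 and 0.000351).

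Facial and red nucleus were not separated in Etv1 in controls (0.63, SE 0.27, adjusted p = 0.0955), and they were in SMA mice (1.53, SE 0.19, adjusted p = 7.15e-10). SMA facial samples had 1.36, 7.29 and 19.3 RPKM (14 mice) and SMA red nucleus samples 0.145, 1.29 and 2.43 (12 mice). The days differed, with SMA means of 11.8 in facial and 0.608 in red nucleus at day 2, and 1.95 and 2.01 at day 10. Whether the difference of this pair changed with genotype was not tested by itself. A limma F test over all populations together, at each day, did not pass (day 2: unadjusted p = 0.0243, adjusted p = 0.40). It cannot decide the question for 1 pair. Lumbar also exceeded ocular, vagus and hypoglossal in SMA mice by 0.73, 0.82 and 1.05 (adjusted p of 0.000629, 0.000106 and 1.46e-06), differences of 0.51, 0.57 and 0.68 in controls that did not pass.

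Lrp4, the agrin receptor, was low everywhere and highest in facial motor neurons. Control facial samples had 0.298, 1.35 and 2.53 RPKM (13 mice), and the means of the other populations were 0.66 ± 0.444 in lumbar (SD, n = 13), 0.486 ± 0.656 in ocular (n = 12), 0.432 ± 0.36 in vagus (n = 11), 0.40 ± 0.325 in hypoglossal (n = 12) and 0.28 ± 0.552 in red nucleus (n = 11). Facial exceeded red nucleus by 0.84 (SE 0.16, adjusted p = 5.79e-05), hypoglossal by 0.70 (adjusted p = 0.0021), vagus by 0.67 (adjusted p = 0.00113) and ocular by 0.67 (adjusted p = 0.00155), and was not separated from lumbar (adjusted p = 0.0636). Within red nucleus, hypoglossal, vagus and ocular, Lrp4 missed the filter on low values used for the SMA comparisons below. In SMA mice the difference from ocular passed (0.60, SE 0.20, adjusted p = 0.0327), and those from red nucleus (0.57, adjusted p = 0.0536), vagus (0.50, adjusted p = 0.0779) and hypoglossal (0.30, adjusted p = 0.53) did not. With quantile normalization the control differences from red nucleus (adjusted p = 0.0551) and ocular (adjusted p = 0.091) missed the threshold. SMA mouse 16 at day 2 stood apart with 11.2 RPKM in hypoglossal, where the other 5 mice had 0.109 to 0.519, and 3.08 in vagus, where the others had 0.0509 to 0.776.

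Markers of glia moved with population beside Lrp4 and Etv1. The Schwann cell list, carried by Pmp22, had control medians of 175.1 RPKM in facial, 124.4 in hypoglossal, 55.6 in lumbar, 29.2 in vagus, 11.0 in ocular and 2.72 in red nucleus. Prx, a gene of myelinating Schwann cells in that list, was at 0 in 8 of 13 facial and 10 of 12 hypoglossal control samples. The part of such cells in the facial levels was not tested.

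Dok7, known as the inner activator of MuSK, was present in every population and followed another order. Ocular controls had 3.10, 10.1 and 19.0 RPKM (12 mice), red nucleus 3.01, 8.57 and 26.8 (11 mice), lumbar 4.03, 7.37 and 14.2 (13 mice) and vagus 0.443, 2.46 and 6.04 (11 mice). Vagus was under ocular by 1.64 on the log2 scale (SE 0.33, adjusted p = 7.16e-05), under red nucleus by 1.38 (adjusted p = 0.00137) and under lumbar by 1.27 (adjusted p = 0.00173), and the same 3 passed in SMA mice with 1.44, 1.27 and 1.23. In SMA mice vagus also lay under hypoglossal by 1.29 (adjusted p = 2.4e-05) and under facial by 0.76 (adjusted p = 0.0218). Ocular also exceeded facial (1.08, adjusted p = 0.0141) and hypoglossal (1.04, adjusted p = 0.0195) in controls, and in SMA mice these differences were 0.67 (adjusted p = 0.0563) and 0.14 (adjusted p = 0.793). Without ocular libraries cut from 1 nucleus, the oculomotor or the trochlear alone, the control differences were 0.78 and 0.74. At day 5 that fit kept only control mouse 71 in ocular, with 3.10 RPKM, where the mice left out had 8.64 to 10.8. Whether a library was cut from 1 nucleus or from both together cannot be told apart from mouse there. Control mice 30 and 75 had a library of each nucleus, with 8.08 and 6.47 RPKM in the oculomotor and 12.8 and 10.8 in the trochlear. With a pseudocount of 0.1 the control difference of ocular from facial missed the threshold. The difference from hypoglossal missed it without control mouse 26, 34, 75, 247 or 254 (adjusted p up to 0.0785). Musk, the kinase on which DOK7 acts, is named outside the rule for genes and after its values were seen: it had a median of 0.0636 RPKM, was at 0 in 47 of 160 samples and did not exceed 1.40.

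Erbb4, a neuregulin receptor, was highest in the red nucleus. Control red nucleus samples had 0, 1.41 and 2.75 RPKM (lowest, median, highest of 11 mice), the 0 being the shallow library of mouse 252, where 3 reads correspond to 0.71 RPKM. Means were 0.696 ± 0.597 in vagus (SD, n = 11), 0.476 ± 0.30 in lumbar (n = 13), 0.441 ± 0.35 in ocular (n = 12), 0.404 ± 0.391 in facial (n = 13) and 0.391 ± 0.28 in hypoglossal (n = 12). Red nucleus exceeded each of facial, hypoglossal, ocular, lumbar and vagus, by 0.72, 0.72, 0.68, 0.62 and 0.44 (adjusted p of 0.000394, 0.000404, 0.00109, 0.00197 and 0.0464), and all 5 passed in SMA mice. Of these only the smallest, from vagus, was lost with mouse as a fixed replicate block (adjusted p = 0.116), and it was lost without control mouse 26, 28, 34, 71, 75, 244, 247, 253 or 254 (adjusted p up to 0.175). No pair of motor populations passed. The inhibitory neuron list, whose cells are known to carry ERBB4, had control medians of 33.3 RPKM in vagus, 20.9 in hypoglossal, 12.7 in ocular, 9.54 in lumbar, 3.21 in red nucleus (0 to 20.49) and 1.24 in facial, and the part of such cells in the Erbb4 levels was not tested. The other receptors of the family, Erbb2 and Erbb3, also named after their values were seen, had medians of 0 over the 160 samples and maxima of 1.48 and 1.63 RPKM.

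No difference between SMA and control mice passed for any of the 7 genes in any population or day. After a filter on low values (1 RPKM or more in as many samples as the smallest group of that population holds), all 7 genes were tested in facial and lumbar, 6 in ocular, vagus and red nucleus (without Lrp4) and 5 in hypoglossal (without Lrp4 and Etv1). With 18 comparisons of population and day, 0 tests passed (limma, smallest adjusted p = 0.376), where 0.129% of all gene tests did. At an unadjusted p under 0.05 there were 4 (3.60%), against 7.10% of all gene tests. Without the filter 0 passed, with 6 at an unadjusted p under 0.05. In bulk samples, fewer cells of a type and less RNA per cell cannot be told apart.

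**Figure D4:**
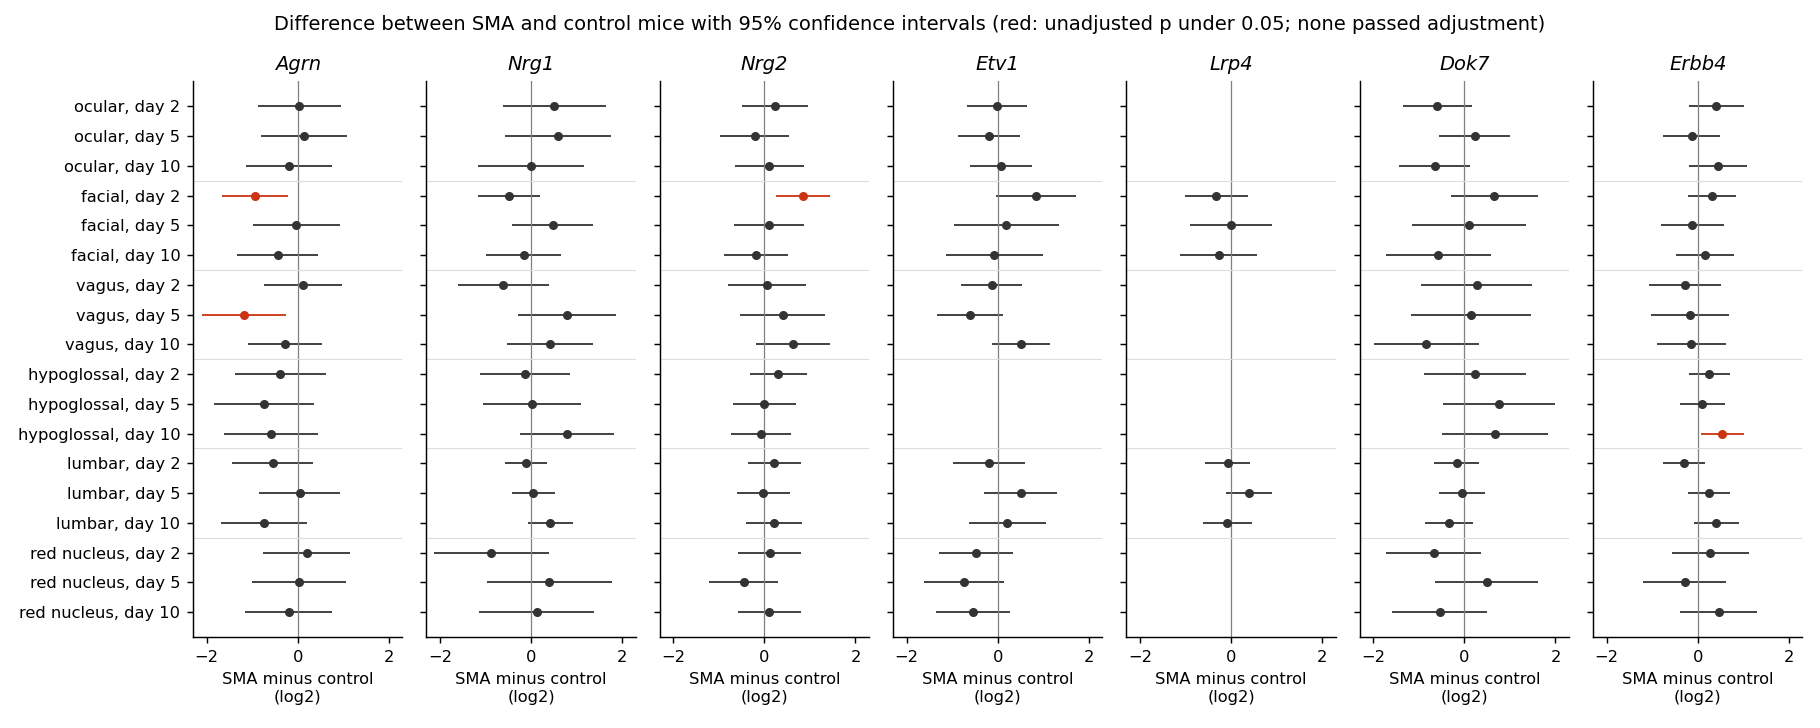
SMA minus control in log2(RPKM + 1) for each gene (panels) in each population and day (rows), with 95% confidence intervals from limma and the 4 differences with an unadjusted p under 0.05 in red. Most intervals span 0, and no difference passed adjustment.

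The 4 lowest p-values came from 3 genes. In facial motor neurons at day 2, Nrg2 was 0.638, 0.267, 1.22, 0.0473 and 0.0561 RPKM in 5 control mice and 1.04, 0.885, 2.14, 2.41, 1.02, 2.45 and 1.10 in 7 SMA mice. 4 of 5 controls lay under every SMA value (difference 0.85, SE 0.29, unadjusted p = 0.00607, adjusted p = 0.376). In the same facial samples Agrn was 86.2, 218.2, 241.7, 209.1 and 99.4 RPKM in controls and 69.7, 67.7, 93.3, 45.7, 69.8, 77.3 and 214.9 in SMA mice. The groups overlapped, with SMA mice 38 and 206 above the lowest control, and the difference was -0.94 (SE 0.36, unadjusted p = 0.014, adjusted p = 0.414). In vagus at day 5 Agrn was 50.9, 44.9, 122.2 and 105.4 RPKM in 4 controls and 36.2, 46.8 and 19.0 in 3 SMA mice, with 1 SMA value above the lowest control (-1.19, SE 0.45, adjusted p = 0.901). In hypoglossal at day 10 Erbb4 was 0.49, 0.201, 0.92 and 0.661 RPKM in controls and 1.38, 1.06, 1.62, 1.35 and 0.912 in SMA mice (0.54, SE 0.23, adjusted p = 0.668), overlapping in 1 value.

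Agrn was lower in SMA mice in 12 of 18 comparisons, with differences from -1.19 to 0.20. With ages pooled the means were 70.8 RPKM in SMA against 102.8 in control facial samples, 65.9 against 100.8 in hypoglossal, 69.3 against 97.98 in lumbar and 51.04 against 66.2 in vagus. They were 76.6 against 67.6 in ocular and 91.4 against 92.5 in red nucleus. The standard errors of the single differences, from 0.36 to 0.53, were as large as most of them.

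The confidence intervals bound what these groups could show. In lumbar motor neurons at day 10, 4 controls had Agrn at 69.5, 170, 59.7 and 53.6 RPKM and 5 SMA mice at 53.2, 56.2, 43.4, 33.6 and 49.6, with a 95% interval of the difference from -1.69 to 0.20. There Nrg1 was 21.5, 14.2, 14.0 and 28.3 RPKM in controls and 20.9, 25.7, 22.2, 23.3 and 37.7 in SMA mice (interval -0.08 to 0.92). Dok7 was 7.43, 9.89, 7.37 and 14.2 RPKM in controls and 7.33, 6.00, 9.91, 5.71 and 8.06 in SMA mice (interval -0.86 to 0.20). The groups overlapped for all 3 genes. In that comparison the intervals for Etv1, Lrp4, Nrg2 and Erbb4 were -0.64 to 1.06, -0.61 to 0.45, -0.41 to 0.82 and -0.09 to 0.91.

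In 2 comparisons of a gene in a population and day the control and SMA samples did not overlap, where 3.06% of tests over all filtered genes did not. Both were Etv1 in vagus, in opposite directions. At day 5 the 4 controls had 1.25, 0.703, 1.10 and 0.937 RPKM and the 3 SMA mice 0.0656, 0.493 and 0.402 (adjusted p = 0.941). At day 10 all 4 controls were listed at 0, and Etv1 had 0.711, 0.0872, 1.11, 0.287 and 0.16 RPKM in 5 SMA mice (adjusted p = 1).

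No change of the genotype difference with age or population passed. None of 37 tests of a change with age passed (smallest adjusted p = 0.696, 0 at an unadjusted p under 0.05), where 0.0344% of all gene tests did. None of 21 tests of a change between populations passed (smallest adjusted p = 0.40, 1 at an unadjusted p under 0.05), where 0.395% did. The lowest was Etv1 at day 2, where facial had 7.11 ± 5.33 RPKM in controls (SD, n = 5) and 11.8 ± 4.89 in SMA mice (n = 7), and hypoglossal 1.32 ± 1.71 (n = 4) and 0.0948 ± 0.177 (n = 6).

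Between day 2 and day 10 the only changes were falls in facial motor neurons. In controls 1 of 37 tests passed, where 7.06% of all gene tests did, and in SMA mice 1 of 37, where 7.39% did (within facial 5.36% and 6.73%). In SMA mice Etv1 was 13.5, 19.3, 3.47, 12.2, 8.35, 12.5 and 13.1 RPKM at day 2 and 2.37, 1.39, 2.69 and 1.36 at day 10. Every day 2 value lay above every day 10 value, and Etv1 fell by 2.02 on the log2 scale (SE 0.46, adjusted p = 0.00668). In control facial samples Etv1 was 0.923, 15.6, 7.38, 5.97 and 5.69 RPKM at day 2 and 0.807, 1.64, 4.0 and 2.64 at day 10, with 1 day 2 value under 3 of the day 10 values (-1.11, SE 0.49, adjusted p = 0.228). At day 5 the controls had 6.28 ± 4.19 RPKM (SD, n = 4) and the SMA mice 6.36 ± 1.64 (n = 3). Red nucleus Etv1 moved the other way without passing, from 1.25 ± 0.741 RPKM (n = 4) to 3.76 ± 2.23 (n = 4) in controls (1.02, SE 0.39, adjusted p = 0.0998).

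**Figure D5:**
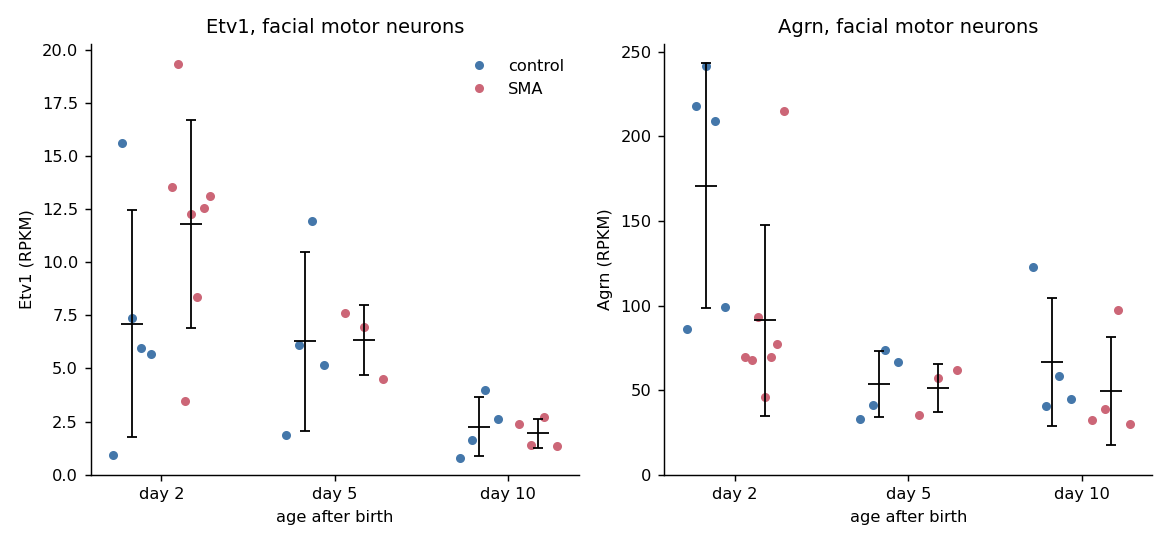
Etv1 and Agrn RPKM in facial motor neurons at day 2, 5 and 10, with 1 point per mouse, controls in blue, SMA mice in red and bars for the mean and SD. Etv1 reaches 19.3 RPKM at day 2 and stays at or under 4.0 at day 10, and 3 of 5 control Agrn values at day 2 are over 200 RPKM.

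Agrn in control facial motor neurons was 170.9 ± 72.5 RPKM at day 2 (SD, n = 5) and 66.7 ± 38.1 at day 10 (n = 4), with single values given above for day 2 and 122.8, 40.9, 58.2 and 44.8 at day 10. The highest day 10 value exceeded 2 of the day 2 values, and Agrn fell by 1.37 on the log2 scale (SE 0.41, adjusted p = 0.0482). Leaving out each of the 34 mice in turn removed this call in 19 fits, those without controls 26, 34, 71, 75, 240, 244, 252, 253 or 254 or SMA mice 16, 18, 31, 61, 77, 196, 199, 206, 209 or 211 (adjusted p up to 0.16 without a control). All facial samples share 1 fit, so these include mice of other groups. In SMA facial samples the difference was -0.87 (SE 0.38, adjusted p = 0.193). For Nrg1, Nrg2, Lrp4, Dok7 and Erbb4 no population passed in either genotype, and the closest was Nrg1 in SMA red nucleus, 2.93 ± 1.83 RPKM at day 2 (n = 4) and 11.7 ± 3.88 at day 10 (n = 4; 1.79, SE 0.61, adjusted p = 0.0972).

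Partner genes were followed in 5 lists that hold none of the 7 genes. They cover the agrin, LRP4 and MuSK pathway (21 genes measured), neuregulins, ERBB receptors and their proteases (21), PEA3-type ETS factors with their inducing signals (12), other nerve-derived organizers (25) and the junction's receptor apparatus (10). No gene of any list passed in any SMA against control comparison (0 tests in each list). A change of the genotype difference between populations passed for 2 genes at day 2. These were Chrne (adjusted p = 3.76e-07), an acetylcholine receptor subunit of mature muscle listed at 0 in 152 of 160 samples, and Lama4 (adjusted p = 0.0187), a laminin chain.

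With age in controls the lists gave 6, 7, 5, 11 and 7 calls (5.77%, 7.78%, 10.9%, 9.74% and 21.2% of their tests), in the order above, against the 7.06% of all gene tests. In the receptor list all 7 rose. Ache, the acetylcholine esterase, rose by 0.83 in ocular (adjusted p = 0.00111), 0.73 in facial (adjusted p = 0.0143), 0.71 in hypoglossal (adjusted p = 0.0161) and 0.49 in lumbar (adjusted p = 0.00734). Ntf3, the neurotrophin of muscle sensory afferents, fell by 3.43 in lumbar (adjusted p = 6.09e-06) and by 2.81 in facial (adjusted p = 0.00791). Etv5, a close relative of Etv1, rose by 1.55 in lumbar (adjusted p = 0.000571). Areg, an ERBB ligand, fell by 2.42 in hypoglossal (adjusted p = 0.0333) and by 1.61 in facial (adjusted p = 0.0318). Sfrp1, a secreted Wnt inhibitor, rose by 1.57 in facial (adjusted p = 0.000634). Among the other organizers Bmp4 rose by 2.16 in lumbar (adjusted p = 0.00274) and Wnt5a by 1.71 in facial (adjusted p = 0.000537), and Lama4 fell by 3.26 in vagus (adjusted p = 0.0078).

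Between ocular and lumbar motor neurons of controls none of the 7 genes passed, where 15.2% of all genes did. The lists gave 5 of 18, 2 of 18, 4 of 10, 5 of 24 and 1 of 7, with median differences (ocular minus lumbar) of -0.23, -0.15, -0.36, -0.07 and -0.19 against -0.03 for all genes. Rapsn, the receptor scaffold rapsyn, was higher in ocular by 1.35 (SE 0.36, adjusted p = 0.00486). Lower in ocular were Wnt7a, a Wnt ligand (-2.24, adjusted p = 4.66e-05), Fgf10 (-1.63, adjusted p = 2.33e-07), Ntf3 (-1.45, adjusted p = 0.00345), Gfra1, a GDNF receptor (-1.25, adjusted p = 2.68e-06), and Adam19, a metalloprotease (-1.19, adjusted p = 6.74e-09).

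Genes most like each of the 7 were found by Pearson correlation of mean log2(RPKM + 1) over the 36 groups, which share mice and libraries, among 18540 genes. For Dok7 they were Pex5l (r = 0.84) and Hapln1 (0.83), for Nrg1 Cit (0.82) and Itm2a (0.82), for Etv1 Chst7 (0.78) and for Erbb4 Cyp11a1 (0.80) and Uncx (0.78). Hapln1, a link protein of perineuronal nets, averaged 39.9 RPKM in ocular and 0.183 in vagus controls, and Uncx, a homeobox factor, 11.7 in red nucleus and at most 0.763 elsewhere. For Lrp4 they were Cxcl12 (0.74) and Nxn (0.72), for Nrg2 Abcd3 (0.68) and Tmem145 (0.66) and for Agrn Rapgef4 (0.67) and Lrrn3 (0.66). Among the 7 themselves the highest correlation was 0.60, between Lrp4 and Etv1, and the lowest -0.45, between Nrg1 and Erbb4.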

How the data were processed

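The authors deposited 1 table of RPKM, with a column for each of 168 libraries. Per the submitters' processing notes STAR 2.4.1c was used and the builds mm10 and hg19 are named, and the read counter is not given in the sources used here. Per the labels' protocols libraries were made from polyA RNA by Smart-seq2 and Tn5 tagmentation, without molecular identifiers, so floors cover counting error only. The 168 libraries gave 160 samples of 34 mice (19 SMA, 15 control). The 8 samples with more than 1 library were averaged. Reads were not recovered: among 17340 genes with 1 transcript, 65.2% to 78.8% of low values per library lay within 0.02 of whole reads, and no count test was run.

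log2(RPKM + 1) was fitted with limma 3.58.1 (R 4.3.3, trend, Benjamini-Hochberg over all genes of a comparison), 1 fit per population for genotype and age, and joint fits for populations. Fold changes on that scale understate changes of low genes. The fit was tested on simulated data for 1 comparison, lumbar at day 10, with changes planted only in genes of a mean log2 level over 3. That test does not cover genes as low as Nrg2, Etv1, Erbb4 and Lrp4. Samples with 1 mouse number come from 1 animal. Their deviations from group means correlated with a median of 0.030 over 150 pairs (-0.041 to 0.145), against -0.007 for 568 pairs of different mice. The members and lists were chosen with earlier results of these data known. All 7 genes are reported. Partner genes are named where they passed a genotype test or, up to 3 per list, changed most with age in controls or between lumbar and ocular, and so are the 2 genes most like each member. Some genes that the rule or lists hold are not reported here. Alternatives were another pseudocount (0.1), no filter or 5 RPKM, quantile normalization, libraries as samples, each mouse left out, mouse as a block, only the groups compared and ocular libraries of 1 nucleus left out.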

Additional observations from a re-analysis of the deposited data

Results flagged for a closer look

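In 24 pairings of a gene with a group of 4 or more mice, 1 mouse lay far from the others. The gap was beyond Dixon's 95% limit in these, which are 10.8% of the pairings tested. That limit flags about 1 in 20 sets of normally distributed values. RPKM was used untransformed here, and no flag rate over all genes is given. The 10.8% thus cannot be read as an excess over chance. Values are in RPKM, each followed by the range of the other mice of its group.

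Agrn was flagged 7 times, always for a high value. In SMA mice these were 214.9 in facial at day 2 (mouse 38, others 45.7 to 93.3), 97.3 in facial at day 10 (mouse 249, others 30.1 to 39.01), 109.2 in ocular at day 10 (mouse 249, others 25.8 to 41.4) and 160.97 in hypoglossal at day 10 (mouse 196, others 28.7 to 57.4). In controls they were 233.99 in hypoglossal at day 2 (mouse 244, others 47.8 to 78.6), 169.9 in lumbar at day 10 (mouse 252, others 53.6 to 69.5) and 104.997 in ocular at day 10 (mouse 252, others 34.4 to 44.5).

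Lrp4 was flagged for 11.2 in hypoglossal (others 0.109 to 0.519) and 3.08 in vagus (others 0.051 to 0.776) of SMA mouse 16 at day 2. It was also flagged for 1.77 in red nucleus of SMA mouse 76 at day 5 (others 0.06 to 0.095), 2.53 in facial of control mouse 26 at day 2 (others 1.27 to 1.60) and a low 0.099 in hypoglossal of control mouse 240 at day 2 (others 0.608 to 0.663).

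Nrg1 was flagged for 29.7 in hypoglossal of control mouse 26 at day 2 (others 11.0 to 12.5), 37.7 in lumbar of SMA mouse 258 at day 10 (others 20.9 to 25.7), a low 21.6 in lumbar of control mouse 29 at day 5 (others 27.4 to 29.4) and 14.5 in vagus of control mouse 252 at day 10 (others 2.39 to 4.15).

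Etv1 was flagged for 0.44 in hypoglossal of SMA mouse 209 at day 2 (others 0 to 0.129), 2.69 in lumbar of control mouse 29 at day 5 (others 0.169 to 0.841) and 2.43 in red nucleus of SMA mouse 258 at day 10 (others 1.84 to 1.89). Dok7 was flagged for a low 0.255 in facial of SMA mouse 249 at day 10 (others 5.80 to 5.89), 13.3 in facial of SMA mouse 16 at day 2 (others 1.61 to 5.78) and 19.0 in ocular of control mouse 14 at day 2 (others 7.48 to 9.33). Erbb4 was flagged for 1.61 in lumbar of SMA mouse 46 at day 5 (others 0.168 to 0.482) and 0.894 in vagus of control mouse 253 at day 10 (others 0.231 to 0.261). Nrg2 was not flagged. The causes were not tested.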

How the results depend on the processing

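No called difference changed sign under any alternative run: of 696 repeated values of 29 calls, 633 kept their call, 63 lost it and 0 reversed. Among these values 19 of the 29 calls were never lost. A fit with 1 mouse left out entered these counts only where its estimate differed from the main one. For Agrn in facial controls, 6 of the 19 such fits that removed the call entered. The counts of 0 for SMA against control, for its change with age and for its change between populations stayed at 0 under every alternative. The 1 age call in controls, Agrn in facial, went to 0 with a pseudocount of 0.1, without the filter, with quantile normalization and with only the groups compared, and ranged from 0 to 2 when each mouse was left out. The cause was not tested. The 1 age call in SMA mice stayed. The 27 population calls ranged from 23 to 28 with each mouse left out, and were 19 with a filter of 5 RPKM, which does not test Lrp4 and Erbb4. With mouse as a replicate block they numbered 27 by duplicate correlation (consensus correlation 0.034) and 28 as a fixed block. No calls other than the 3 given in the report were lost there. The 28 thus include pairs that did not pass in the main fit, which are not named. Of the 27 population calls, those lost most often among the values counted were Nrg1 between ocular and red nucleus (in 18 alternatives), Erbb4 between vagus and red nucleus (11), Nrg1 between hypoglossal and red nucleus (9) and Dok7 between ocular and hypoglossal (7). Depth limits Lrp4, Erbb4, Etv1 and Nrg2, whose values in shallow libraries lie near 3 reads.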
